A study of Rattus norvegicus with 8 samples.

Results

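Glucose is broken down to pyruvate by glycolysis, and 32 rat genes of glucose uptake, glycolysis, lactate handling, pyruvate dehydrogenase and the pentose phosphate pathway were followed by their symbols in 2 deposited RNA-seq tables. Of these, 31 were found in both tables: 2 glucose transporters, 11 genes of upper glycolysis, 6 of lower glycolysis, 4 of lactate handling, 3 of pyruvate dehydrogenase and 5 of the pentose phosphate pathway. Pgd was not analysed here. Each of the 31 symbols stood in 1 row of each table, among 14295 genes in the stem cell table and 18236 in the adipocyte table.

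The Wistar rats were wild type (WT) and had spent 6 months on 1 of 2 diets, control (C) or high-fat sucrose (HFS), before their inguinal adipose tissue was taken. The groups ASC_C and ASC_HFS were adipose-derived stem cells (ASC), that is mesenchymal stem cells freed from that fat with collagenase and grown in culture. The groups AD_C and AD_HFS were adipocytes (AD) grown from such cells, by 3 days of induction and 7 days of maintenance. Induction medium held insulin at 10.0 µg/mL, the glucocorticoid dexamethasone at 5.0 µM and the phosphodiesterase inhibitor 3-isobutyl-1-methylxanthine at 0.5 mM, and maintenance medium held the same dose of insulin alone. All 4 groups had 2 libraries of 50 bp paired-end reads, so that diet was compared within each cell state. Whether a group's libraries are separate animals, pools or cultures is not stated in the labels, so the p-values below measure only the spread between these samples. The labels do not tie AD to ASC libraries either.

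In glycolysis, hexokinase traps glucose in the cell as a phosphate, phosphofructokinase sets the pace of the pathway, and the enzymes of the lower part make ATP and pyruvate. Pyruvate either enters the mitochondrion through pyruvate dehydrogenase or is reduced to lactate, which leaves through monocarboxylate transporters. The pentose phosphate pathway branches off at glucose 6-phosphate and supplies NADPH and ribose. In fat, glycolysis also supplies glycerol phosphate and acetyl units for triglyceride synthesis, and many of its genes are known targets of hypoxia-inducible factors and of Myc.

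Depth differed strongly between the tables, from 992618 to 7290961 reads per library in ASC and from 76083827 to 119555051 in AD. The library with the fewest reads was ASC_HFS replicate 2, where 3 reads equal 10.9 normalized counts. None of the 31 genes fell under 3 reads in any library. Values below are normalized counts, that is reads divided by the size factor of the library within its own table, given as replicate 1 and replicate 2. Ratios are of group means of these counts. Log2 differences are HFS minus C on log2(deposited value + 1), a scale that shrinks differences of genes with few reads, each with its standard error and the Benjamini-Hochberg adjusted p of limma-trend over all genes of the table. A gene was called when this adjusted p was under 0.05. Libraries of 1 group differed by a median of 0.25 log2 over the 31 genes in ASC_C, 0.34 in ASC_HFS, 0.25 in AD_C and 0.042 in AD_HFS. The adipocyte markers, 9 genes measured in both tables, held 1.32 to 1.72% of reads in AD and 0.0916 to 0.319% in ASC.

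Hypoxia-inducible factors and Myc bind short motifs in promoters of such genes, and whether they did so here was not tested. Promoter sequences are shown for 4 of the genes that fell in ASC_HFS. They are the 250 bases before the start of transcription from the RefSeq tables (build GRCr8), where 28 of the 31 genes were matched to 32 windows. Capitals mark ACGTG, the core of the hypoxia response element, or its reverse complement CACGT, and CACGTG, the E-box that Myc binds, which contains both. The window of Ldha, chr1:106507842-106508091 on the plus strand, held ACGTG at 3 positions counted over both strands, of which a pair form an E-box. That of Pgam1, chr1:250672902-250673151 on the plus strand, held it at 1 position. Those of Tpi1, chr4:159305089-159305338 on the minus strand, and Slc16a3, chr10:106712078-106712327 on the plus strand, held neither motif.
Ldha: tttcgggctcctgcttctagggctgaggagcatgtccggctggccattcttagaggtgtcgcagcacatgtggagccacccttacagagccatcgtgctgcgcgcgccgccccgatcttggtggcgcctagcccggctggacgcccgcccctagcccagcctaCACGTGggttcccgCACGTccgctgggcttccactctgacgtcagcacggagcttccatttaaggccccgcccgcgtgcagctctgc
Pgam1: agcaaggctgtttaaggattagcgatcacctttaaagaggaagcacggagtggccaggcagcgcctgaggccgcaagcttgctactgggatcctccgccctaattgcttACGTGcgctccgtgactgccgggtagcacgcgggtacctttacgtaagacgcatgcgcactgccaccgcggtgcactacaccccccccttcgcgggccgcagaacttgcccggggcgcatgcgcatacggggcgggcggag
Tpi1: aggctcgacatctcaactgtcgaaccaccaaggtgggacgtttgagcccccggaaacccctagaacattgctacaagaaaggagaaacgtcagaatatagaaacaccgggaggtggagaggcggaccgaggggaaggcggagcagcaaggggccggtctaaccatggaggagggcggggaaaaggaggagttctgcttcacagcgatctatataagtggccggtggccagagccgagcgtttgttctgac
Slc16a3: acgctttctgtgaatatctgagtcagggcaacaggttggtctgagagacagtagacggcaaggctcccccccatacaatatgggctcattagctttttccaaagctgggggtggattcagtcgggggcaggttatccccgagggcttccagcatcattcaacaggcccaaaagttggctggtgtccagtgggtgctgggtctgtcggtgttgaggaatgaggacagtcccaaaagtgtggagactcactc

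Over all members, 13 of 32 windows (40.6%) held ACGTG on either strand, against 16.6% of 33469 windows of the same length. The E-box stood in 4 of 32 (12.5%), against 5.59% of all windows. Of the windows whose genes were lower in ASC_HFS, 5 of 12 held ACGTG, and of the windows whose genes were not called, 7 of 18. The member windows were richer in G and C, with a median GC content of 61.4% against 51.2% in all windows, and the part of this in the motif shares was not tested. No difference between these shares was tested, and a match describes the sequence only.

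In the stem cells, most enzymes between glucose 6-phosphate and lactate were lower after the HFS diet, while a hexokinase, a glucose transporter and a lactate transporter were higher. Of the 31 genes, 13 fell, against a background of 9.70% of all 14295 genes called lower, and 3 rose, against a background of 9.41% called higher. The other 15 were not called. With a filter at a mean of 10 normalized counts, 13 of the 31 were called lower and 4 higher. Of all 11342 genes kept by that filter, 1517 were called lower and 1481 higher. The genes that fell were 2.22 to 9.20-fold lower in normalized counts, with a median of 3.44-fold. The median log2 difference was -0.38 over the 31 genes and -0.04 over all genes. The normalized counts of both HFS libraries lay below both control libraries for 17 of the 31 genes (32.5% of all genes) and above them for 9 (28.5% of all genes).

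**Figure D1:**
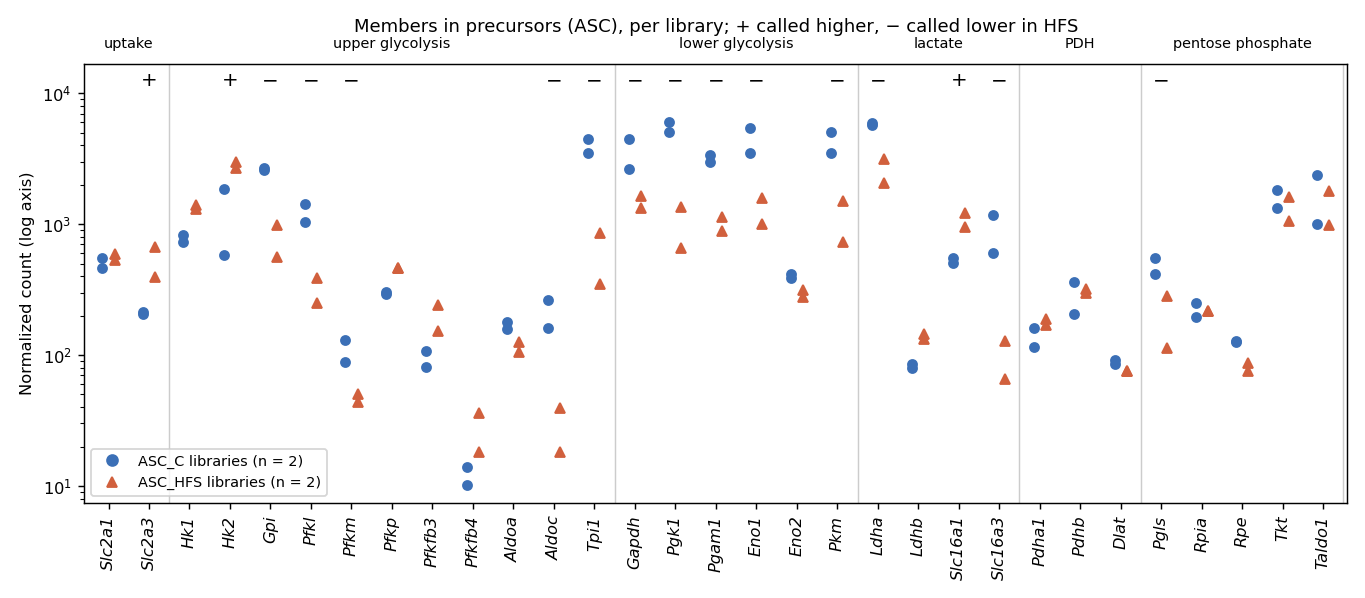
Normalized counts of the 31 genes in each ASC library (log axis), ordered by step from glucose uptake to the pentose phosphate pathway; each point is 1 library, control or HFS. The HFS points of Tpi1, Pgk1, Aldoc and Slc16a3 lie well below the control points, and those of Slc2a3, Hk2 and Slc16a1 lie above them.

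Uptake and trapping of glucose went up or were not called. Slc2a3 (ENSRNOG00000008376), the high-affinity glucose transporter GLUT3, had 213 and 206 normalized counts in ASC_C and 394 and 671 in ASC_HFS. It rose by 1.08 ± 0.28 log2 (adjusted p = 0.0157, limma-trend), a ratio of 2.54. Slc2a1, which encodes the widely expressed transporter GLUT1, had 554 and 464 in ASC_C and 531 and 591 in ASC_HFS, so its groups overlapped and it was not called (adjusted p = 0.772, limma-trend). Hk2, the insulin-responsive hexokinase of muscle and fat, had 581 and 1866 in ASC_C and 2994 and 2698 in ASC_HFS. It rose by 1.38 ± 0.43 log2 (adjusted p = 0.0372, limma-trend), although its control libraries stood far apart from each other. Hk1, the hexokinase of most tissues, had 822 and 736 in ASC_C and 1296 and 1396 in ASC_HFS. Its groups did not overlap, but it was not called (log2 difference 0.74 ± 0.28, adjusted p = 0.0815, limma-trend).

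Downstream in upper glycolysis, 5 of 11 genes fell, against 9.70% of all genes. Gpi, which turns glucose 6-phosphate into fructose 6-phosphate, had 2710 and 2590 normalized counts in ASC_C and 978 and 566 in ASC_HFS. It fell 3.43-fold (log2 difference -1.74 ± 0.32, adjusted p = 0.00291, limma-trend). Both control libraries were nearly equal here and both HFS libraries were far lower. The phosphofructokinase isozymes did not move as one. Pfkl, the liver type, had 1427 and 1038 in ASC_C and 385 and 250 in ASC_HFS and fell 3.88-fold (log2 difference -1.76 ± 0.29, adjusted p = 0.00138, limma-trend). Pfkm, the muscle type, had 130 and 88.8 in ASC_C and 50.5 and 43.5 in ASC_HFS and fell 2.32-fold (adjusted p = 0.0473, limma-trend), close to the threshold. Pfkp, the platelet type, had 295 and 302 in ASC_C and 460 and 461 in ASC_HFS, where both libraries were above both controls, but it was not called (log2 difference 0.53 ± 0.25, adjusted p = 0.15, limma-trend). Pfkfb3 and Pfkfb4 make fructose 2,6-bisphosphate, the activator of phosphofructokinase, and neither was called. Pfkfb3 had 81.5 and 107 in ASC_C and 152 and 239 in ASC_HFS (adjusted p = 0.0584, limma-trend). Pfkfb4 had few reads, with 10.2 and 13.9 against 18.1 and 36.3 normalized counts.

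The aldolases and triose phosphate isomerase close upper glycolysis. Aldoc, the brain-type aldolase, had 263 and 162 normalized counts in ASC_C and 39.3 and 18.1 in ASC_HFS. It fell 7.40-fold (log2 difference -1.72 ± 0.26, adjusted p = 0.00064, limma-trend), with a wide gap between the groups. Its value in ASC_HFS replicate 2 rests on 5 reads. Aldoa, the aldolase of most tissues, had 180 and 159 in ASC_C and 105 and 127 in ASC_HFS and was not called (adjusted p = 0.261, limma-trend). Tpi1 (ENSRNOG00000015290), which interconverts the triose phosphates, had 3530 and 4472 in ASC_C and 858 and 352 in ASC_HFS. Its log2 difference of -2.70 ± 0.37 (adjusted p = 0.000393, limma-trend) was the lowest among the 31 genes. The HFS libraries differed from each other by more than the control libraries did, yet both were far below them.

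In lower glycolysis 5 of 6 genes fell and none rose, against 9.70% and 9.41% of all genes. Pgk1, phosphoglycerate kinase and the first step that makes ATP, had 5095 and 6055 normalized counts in ASC_C and 1358 and 656 in ASC_HFS. It fell 5.53-fold (log2 difference -2.47 ± 0.37, adjusted p = 0.000622, limma-trend). Pkm, the pyruvate kinase of most tissues, had 3527 and 5071 in ASC_C and 1517 and 733 in ASC_HFS and fell 3.82-fold (adjusted p = 0.00368, limma-trend). For both kinases the lowest control library was more than the highest HFS library. Eno1, the common enolase, had 5410 and 3483 against 1589 and 997 and fell 3.44-fold (adjusted p = 0.00499, limma-trend). Pgam1, phosphoglycerate mutase, whose promoter is shown above, had 3373 and 2993 against 1142 and 888 and fell 3.13-fold (adjusted p = 0.00376, limma-trend). Gapdh, the dehydrogenase often used as a reference gene, had 4479 and 2626 against 1646 and 1324 and fell 2.39-fold (adjusted p = 0.0296, limma-trend). The control libraries of Eno1 and Gapdh differed more between themselves than those of Pgam1. Eno2, the enolase of neurons, had 387 and 416 against 313 and 276 and was not called (log2 difference -0.38 ± 0.25, adjusted p = 0.306, limma-trend).

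The lactate genes moved in opposite directions. Slc16a3 (ENSRNOG00000036677), which encodes MCT4, the lactate exporter of glycolytic cells, had 1175 and 607 normalized counts in ASC_C and 128 and 65.3 in ASC_HFS. It fell 9.20-fold (log2 difference -2.56 ± 0.32, adjusted p = 0.000194, limma-trend). Both HFS libraries were far below the lower control library. Slc16a1, which encodes MCT1, a transporter with a higher affinity for lactate, had 509 and 553 in ASC_C and 959 and 1226 in ASC_HFS. It rose by 0.95 ± 0.28 log2 (adjusted p = 0.0294, limma-trend), a ratio of 2.06. Ldha, the lactate dehydrogenase subunit that prevails in glycolytic tissue, had 5713 and 5897 in ASC_C and 3172 and 2056 in ASC_HFS and fell 2.22-fold (log2 difference -1.16 ± 0.35, adjusted p = 0.0349, limma-trend). It was the mildest fall among the 13 in normalized counts. Ldhb, the heart-type subunit, had 79.7 and 84.7 in ASC_C and 133 and 145 in ASC_HFS, without overlap but not called (adjusted p = 0.133, limma-trend).

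Pyruvate dehydrogenase and most of the pentose phosphate pathway were not called. Pdha1, Pdhb and Dlat, subunits of the E1 and E2 parts of the complex, had ratios of 1.30, 1.08 and 0.856. Pgls, the lactonase of the oxidative pentose phosphate branch, was the exception among 5 pentose phosphate genes. It had 415 and 549 normalized counts in ASC_C and 284 and 112 in ASC_HFS and fell 2.43-fold (log2 difference -1.14 ± 0.32, adjusted p = 0.0233, limma-trend). Its HFS libraries lay far apart, though both were below both controls. Rpe, ribulose phosphate epimerase, had 128 and 126 against 75.5 and 87 and was not called (adjusted p = 0.206, limma-trend). Rpia, Tkt and Taldo1, which interconvert the sugar phosphates of the non-oxidative branch, overlapped between the groups, with ratios of 0.972, 0.851 and 0.821.

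The share of all reads that fell on the 31 genes was 1.43 and 1.40% in ASC_C and 0.679 and 0.524% in ASC_HFS, counted over the 14018 genes listed in both tables. Lower glycolysis took 0.720 and 0.632% in ASC_C and 0.207 and 0.135% in ASC_HFS. Upper glycolysis took 0.324 and 0.353% against 0.201 and 0.172%, and the lactate genes 0.242 and 0.219% against 0.120 and 0.0971%. Glucose uptake took 0.0248 and 0.0205% against 0.0254 and 0.0351%, and pyruvate dehydrogenase 0.0147 and 0.0175% against 0.0154 and 0.0157%. The shares of glycolysis and lactate were thus lower in both HFS libraries, and those of glucose uptake were not. In bulk RNA, fewer cells of a type and less RNA of these genes per cell cannot be told apart.

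**Figure D2:**
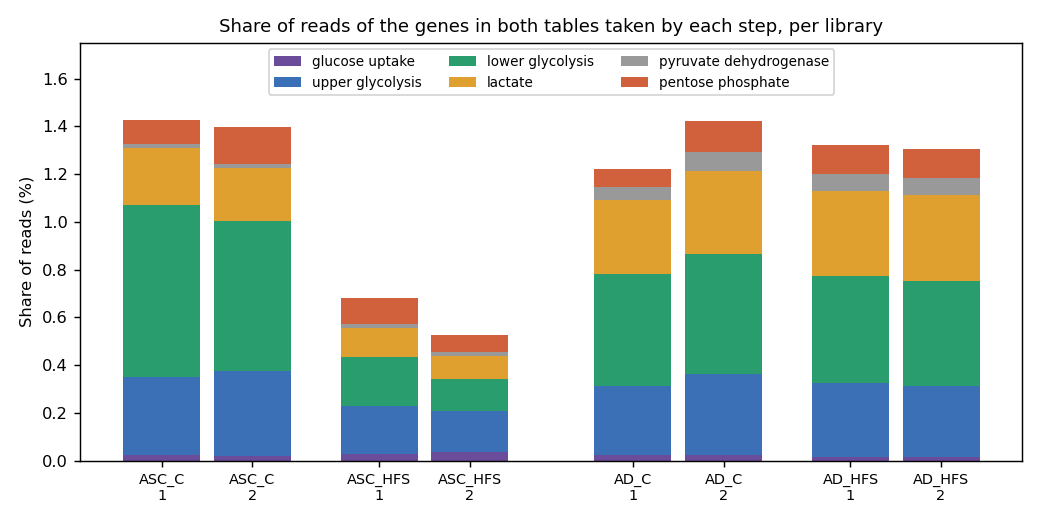
Stacked share of reads (percent, over genes listed in both tables) in each of the 8 libraries for the 6 steps; each bar is 1 library and each segment 1 step. The segments of lower glycolysis and lactate are smallest in the ASC_HFS libraries, whereas they are of similar size in the 4 AD libraries.

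Markers of other cell types moved with diet in the same stem cell libraries, where 9.41% of all genes rose and 9.70% fell. Of 14 macrophage markers 10 rose, and their summed share of reads was 0.0882 to 0.0922% in ASC_C and 0.272 to 0.297% in ASC_HFS. Of 9 endothelial markers 8 rose (0.0267 to 0.0543% against 0.124 to 0.125%), and of 8 epithelial and mammary markers 6 rose (0.0108 to 0.0142% against 0.125 to 0.150%). Of 8 proliferation markers 6 fell, with summed shares of 0.0432 to 0.0477% against 0.0281 to 0.0288%. Of 3 red blood cell markers 2 rose (0.00102 to 0.00366% against 0.0296 to 0.0387%), and their Alas2 was at 0 in both ASC_C libraries. Of 10 mesenchymal progenitor markers 3 rose and 3 fell (2.56 to 2.90% against 4.47 to 4.74%). Most of these reads were of Col1a1 and Col3a1, which were higher in both HFS libraries but not called (adjusted p = 0.0744 and 0.0856, limma-trend). Dcn, next in reads and also not called, went the other way, with 20109 and 19292 normalized counts in ASC_C and 12836 and 15136 in ASC_HFS. The summed share thus does not stand for the list as a whole. Of 9 adipocyte markers 5 rose and none fell (0.0916 to 0.319% against 0.231 to 0.304%), so that their summed shares overlapped. Of 7 smooth muscle and pericyte markers 2 rose and 2 fell (0.0439 to 0.0521% against 0.0191 to 0.0272%). Of 4 mast cell markers 3 rose, of which Tpsb2 was at 0 in both ASC_C libraries, and of 2 neutrophil markers 1 rose. None of the 4 skeletal muscle and 2 lymphoid markers was called. The part of these markers in the difference of the glycolytic genes was not tested.

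Among 72 other genes of these pathways measured in ASC, 6 rose (8.33%) and 8 fell (11.1%), shares near the background given above. Glycogen metabolism had 5 of 12 genes lower and none higher. Gys1, muscle-type glycogen synthase, had 414 and 432 normalized counts in ASC_C and 79.2 and 21.8 in ASC_HFS. It fell 8.38-fold (log2 difference -2.24, adjusted p = 0.000228, limma-trend). Pgm1, which links glucose 1-phosphate to glucose 6-phosphate, had 672 and 444 against 127 and 87.0. It fell 5.22-fold (log2 difference -1.87, adjusted p = 0.000516, limma-trend). Both HFS libraries were far below both controls for these 2 genes. The 21.8 of Gys1 in ASC_HFS replicate 2 rests on few reads, as 3 reads equal 10.9 normalized counts there. Pygl, a glycogen phosphorylase, fell 3.24-fold, Gyg1, which primes glycogen, 2.39-fold, and Phkg2, a phosphorylase kinase subunit, 2.27-fold.

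A list of 13 genes held transcription regulators of glycolysis together with genes that are not, such as Vhl, Egln3, Txnip and the arrestin Arrdc4. Of the 13 genes, 4 rose and none fell, against 9.41% and 9.70% of all genes. Myc had 245 and 201 normalized counts in ASC_C and 450 and 638 in ASC_HFS, and it rose by 1.07 ± 0.26 log2 (adjusted p = 0.0133, limma-trend). Epas1, which encodes the hypoxia-inducible factor HIF2A, had 303 and 315 against 624 and 823, and it rose by 1.06 ± 0.26 log2 (adjusted p = 0.0138, limma-trend). Myc and Epas1 moved opposite to most of the enzymes, and their part in the enzyme differences was not tested. Mlxip, a glucose-sensing partner of Mlx, and Arrdc4, an arrestin induced by glucose, rose with ratios of 2.31 and 2.64. Hif1a had 861 and 719 against 1221 and 1741 and was not called (adjusted p = 0.0663, limma-trend). Pdk1 and Pdk4 encode kinases that switch pyruvate dehydrogenase off, and they went opposite ways, Pdk1 falling 4.09-fold (adjusted p = 0.00617, limma-trend) and Pdk4 rising with a ratio of 2.37 (adjusted p = 0.0343, limma-trend). Ldhd, the D-lactate dehydrogenase, fell 7.70-fold and Adpgk, an ADP-dependent glucokinase, 2.24-fold. Gpd2, the mitochondrial glycerol phosphate dehydrogenase, rose with a ratio of 2.62. The tested scale shrinks differences at few reads, and there the log2 differences were -1.21 for Ldhd, -0.91 for Adpgk and 0.68 for Gpd2. On it Pdk1 stood at -1.11, Pdk4 at 0.98, Mlxip at 0.84 and Arrdc4 at 1.08.

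With either tool run on all 4 ASC libraries the falls stood, since limma-voom on the recovered reads called 12 members lower (10.3% of all genes) and 3 higher (12.1%), losing Pfkm. Without any 1 ASC library a group has 1 library left, and the limma-trend calls were lost. The log2 differences of the called members kept their direction in these limma-trend fits. The 13 called lower stayed at -0.51 or below, and the 3 called higher at 0.59 or above.

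In the adipocytes the diet difference of these genes was small. Only Slc2a3 fell among the 31 genes, against a background of 0.0329% of 18236 genes called lower, and none was called higher, against 1.31% of all genes. Limma-trend gave 3 of the 31 an unadjusted p under 0.05, against 2540 of all 18236 genes. Limma-voom called 0 lower and 0 higher (0.0165% and 0.806% of all genes). Slc2a3 had 13418 and 15256 normalized counts in AD_C and 7527 and 7653 in AD_HFS, a 1.89-fold fall (log2 difference -0.90 ± 0.10, adjusted p = 0.0448, limma-trend). Both HFS libraries were below both controls and almost equal. This call did not stand with limma-voom (adjusted p = 0.0554), nor without AD_HFS replicate 1 (adjusted p = 0.392, limma-trend) or replicate 2 (adjusted p = 0.376, limma-trend).

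The median log2 difference in AD was -0.05 over the 31 genes and -0.01 over all genes. The HFS libraries lay below both controls for 9 of the 31 genes (23.5% of all genes) and above them for 5 (24.2% of all genes). Eno2 had 10772 and 12463 in AD_C and 7855 and 7821 in AD_HFS, a log2 difference of -0.55 ± 0.11 that missed the threshold (adjusted p = 0.115, limma-trend). Aldoc had 2504 and 3014 against 1992 and 1961 (log2 difference -0.44 ± 0.12, adjusted p = 0.232, limma-trend). Taldo1, transaldolase, had 19511 and 26698 against 31084 and 30587 (log2 difference 0.43 ± 0.17, adjusted p = 0.375, limma-trend), the largest positive difference of the 31. Ldha had 244357 and 241520 against 264158 and 265794. Slc16a3 had 2812 and 3099 against 2856 and 2692, with overlapping groups.

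**Figure D3:**
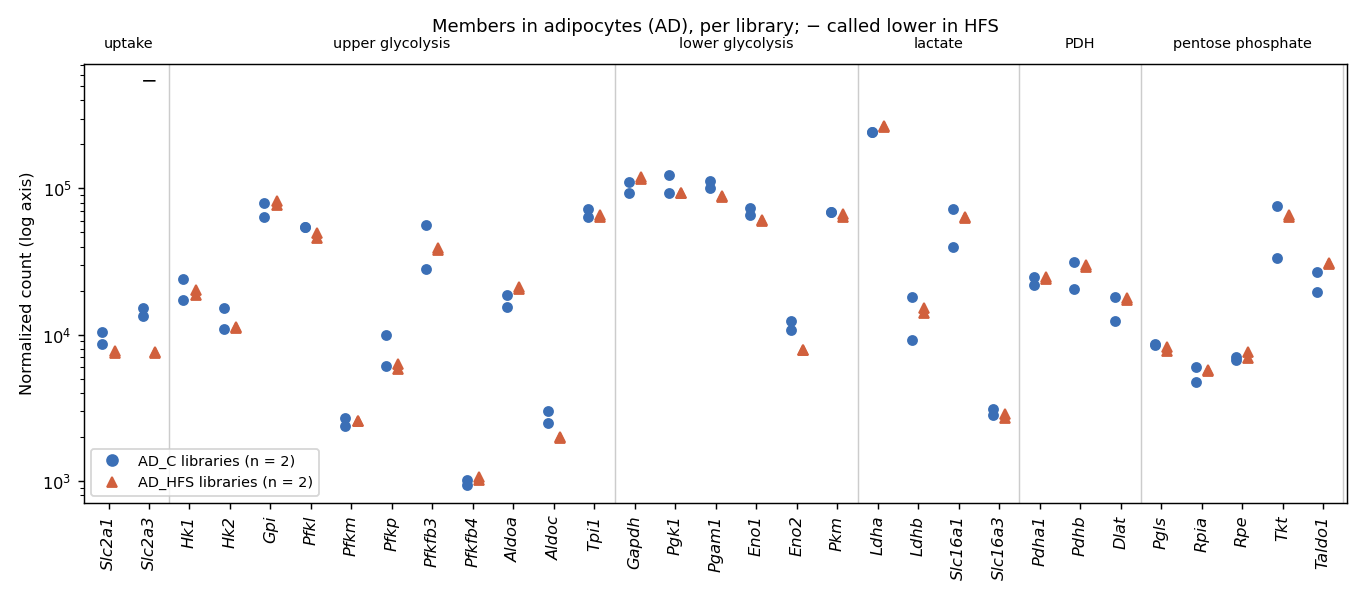
Normalized counts of the 31 genes in each AD library (log axis), in the same order; each point is 1 library, control or HFS. Control and HFS points lie close together for most genes, with Slc2a3 lower in HFS and with control points far apart for Tkt, Ldhb, Pfkfb3 and Slc16a1.

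The 2 AD_C libraries disagreed for several members. Tkt, transketolase, had 33207 and 76038 normalized counts in AD_C against 65641 and 63620 in AD_HFS. Pfkfb3 had 28213 and 55794 against 38954 and 37826. Ldhb had 9176 and 18162 against 15176 and 14124, and Slc16a1 had 39674 and 71776 against 62630 and 64156. In each of these genes both HFS libraries lay between the controls. With AD_HFS set against each control library by itself, 5 members were called in opposite directions (Hk1, Pfkfb3, Ldhb, Slc16a1 and Tkt), against a background of 7.61% of all genes. Slc2a1, Slc2a3, Pfkl, Aldoc, Pgam1 and Eno2 were lower against either control (7.51% of all genes), and Aldoa and Taldo1 were higher against either (11.8% of all genes). In these fits the lone control was assumed to vary as little as the AD_HFS libraries, which differed from each other far less than the controls did.

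Other pathway genes in AD were also mostly not called, with 1 of 74 higher (1.35%) and none lower. Hk3, a hexokinase of myeloid cells, had 861 and 1178 normalized counts in AD_C and 3522 and 3411 in AD_HFS, and it rose by 1.60 ± 0.16 log2 (adjusted p = 0.0351, limma-trend). In these libraries 9 of 14 macrophage markers rose, against 1.31% of all genes. Their summed shares of reads were 0.034 to 0.0518% in AD_C and 0.271 to 0.272% in AD_HFS, and none of them was at 0. Their part in the Hk3 difference was not tested. Of 8 proliferation markers none was called, and their shares were 0.00803 to 0.0105% against 0.0155%.

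The diet differences of ASC and AD were then set against each other in 1 fit over the 8 libraries. For 10 of the 31 genes the AD difference was higher than the ASC difference, against a background of 7.53% of 14018 genes. For 1 it was lower, against a background of 4.93%. The median of AD minus ASC was 0.60 over the 31 genes and 0.07 over all genes. The 10 genes were Gpi, Pfkl, Aldoc, Tpi1, Gapdh, Pgk1, Pgam1, Eno1, Pkm and Slc16a3, all of which had fallen in ASC and none of which was called in AD. Tpi1 differed by 2.63 ± 0.47 log2 (adjusted p = 0.0102, limma-trend), Slc16a3 by 2.47 ± 0.41 (adjusted p = 0.00768, limma-trend) and Pgk1 by 2.27 ± 0.45 (adjusted p = 0.0146, limma-trend). Slc2a3 was the gene with opposite calls, higher in ASC_HFS and lower in AD_HFS, and it differed by -1.98 ± 0.31 (adjusted p = 0.00684, limma-trend). Ldha, Hk2, Pfkm, Slc16a1 and Pgls, called in ASC, did not pass this test (adjusted p = 0.0569 for Ldha, limma-trend). Without 1 of the 8 libraries, 2 to 9 of the 10 genes were still called (2 without ASC_C replicate 1 or either AD_HFS library, 3 without ASC_HFS replicate 2), and Slc2a3 was called each time. Limma-voom also called 10 members higher (5.29% of all genes) and 1 lower (3.97%), with Ldha in place of Gapdh. Depth differed by table, and the scale shrinks low counts unequally in the 2 tables.

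**Figure D4:**
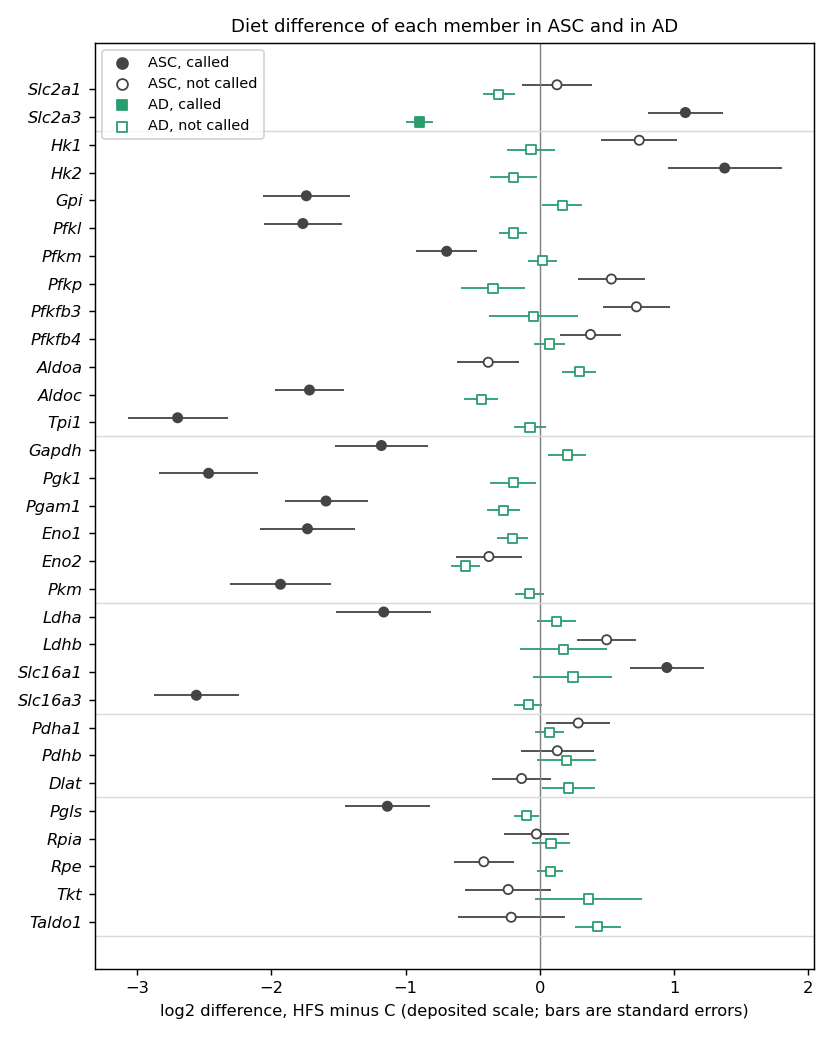
Log2 difference HFS minus C with its standard error for the 31 genes in ASC and in AD, on the log2(deposited value + 1) scale; filled points were called. In ASC the enzymes from Gpi to Ldha lie to the left of 0 other than Pfkp, Pfkfb3 and Pfkfb4, whereas in AD nearly all points lie near 0.

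The diet difference can be read beside the levels in the 2 cell states, given here as counts per 1e6 reads over the shared genes. The tables were normalized apart, so these levels come without a test, and levels are compared only for the same gene. In ASC_C Slc16a3 stood at 380 and 186, in ASC_HFS at 35.2 and 18.1, and in AD at 27.8 to 32.3. The ASC_HFS libraries thus lay on either side of the adipocytes, and both were far below the control stem cells. Tpi1 stood at 1141 and 1368 in ASC_C, 235 and 97.8 in ASC_HFS and 656 to 755 in AD, so that ASC_HFS was below both other states. For 10 of the 31 members all AD libraries lay above all ASC libraries, against a background of 22.4% of the 14018 shared genes. Among these Pfkfb3 had the widest gap between the control groups, 14.8-fold, and Dlat, Pdha1 and Ldhb followed with 5.73, 5.55 and 5.51-fold. For Slc2a1 and Hk2 all AD libraries lay below all ASC libraries, and the control groups differed by 1.62 and 2.80-fold. Of all shared genes 19.1% had that order. The other 19 overlapped.

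The balance within several pairs of isozymes or transporters differed between diets in the stem cells. The ratios below are of normalized counts of 2 genes within 1 library and were compared between libraries only, since they are not per length. Slc16a1 to Slc16a3 was 0.433 and 0.911 in ASC_C, 7.47 and 18.8 in ASC_HFS and 14.1 to 23.8 in AD. Pfkp to Pfkl was 0.206 and 0.291 in ASC_C and 1.19 and 1.84 in ASC_HFS, but 0.112 to 0.182 in AD. In ASC_HFS the first ratio was thus nearer to the adipocytes than in ASC_C, with 1 of its 2 libraries inside their range, and the second was farther from them. Pfkm to Pfkl was 0.0909 and 0.0855 against 0.131 and 0.174 in ASC and 0.0438 and 0.0495 against 0.0520 and 0.0566 in AD, higher in HFS without overlap in both. Ldhb to Ldha was 0.0139 and 0.0144 in ASC_C, 0.0421 and 0.0705 in ASC_HFS and 0.0376 to 0.0752 in AD. Aldoc to Aldoa was 1.46 and 1.02 in ASC_C and 0.373 and 0.143 in ASC_HFS, where the last value rests on 5 reads of Aldoc. Eno2 to Eno1 was 0.0716 and 0.119 against 0.197 and 0.276. In AD the groups of these 2 ratios did not overlap either, with Aldoc to Aldoa at 0.163 and 0.161 against 0.0939 and 0.0956, and Eno2 to Eno1 at 0.147 and 0.189 against 0.129 and 0.131. Slc2a3 to Slc2a1 was 0.385 and 0.444 against 0.742 and 1.13 in ASC and 1.29 and 1.76 against 0.972 and 1.01 in AD, up with the diet in one and down in the other. Hk2 to Hk1 and Pfkfb3 to Pfkfb4 overlapped between diets in both cell states. The 9 ratios are a description and were not tested, since the smallest 2-sided exact permutation p for 2 libraries against 2 is 0.333.

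**Figure D5:**
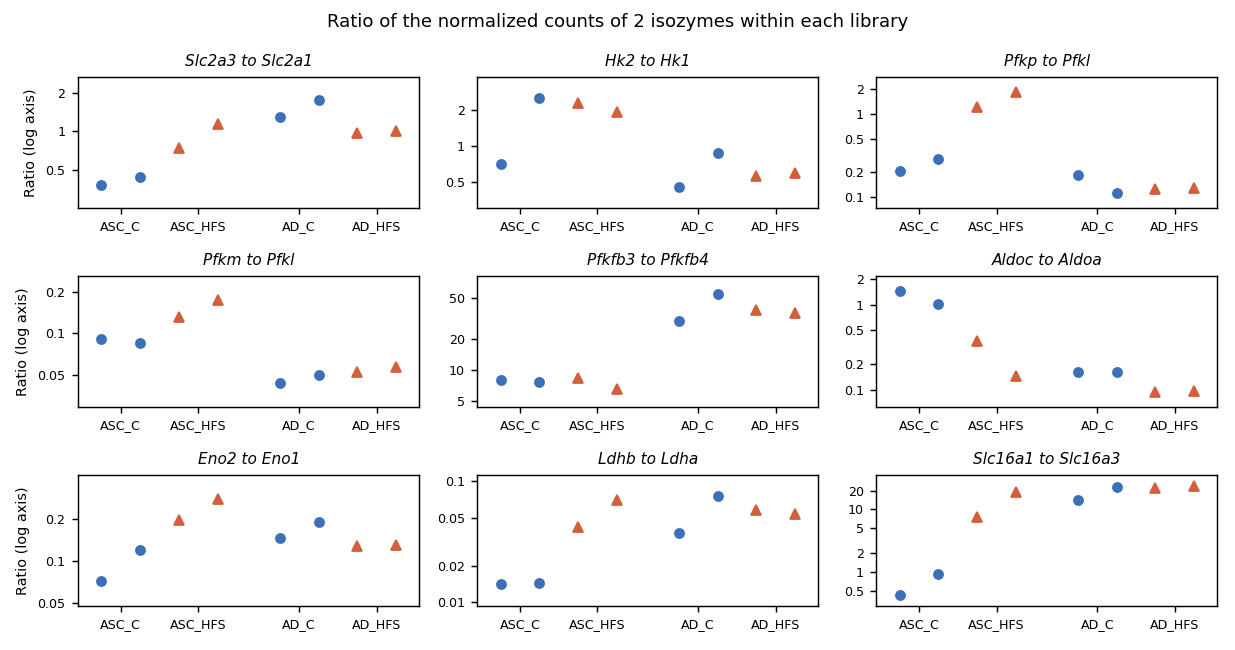
Ratio of normalized counts of paired isozymes or transporters in each of the 8 libraries (log axes), 1 point per library. Slc16a1 to Slc16a3 and Pfkp to Pfkl lie higher in both ASC_HFS libraries than in both ASC_C libraries.

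Some of these genes share sequence with copies elsewhere in the genome. RefSeq names 220 copies, mostly pseudogenes, for 13 of the members, with 91 for Gapdh, 34 for Eno1 and 31 for Ldha. Only 1 copy had a row in the ASC table and 3 in the AD table. How reads that match several places were counted is not given in the sources used here, so the levels of Gapdh, Eno1, Ldha, Pkm, Pgam1, Aldoa, Pgk1 and Tpi1 are uncertain in this respect. Some members are also neighbours, with 2 protein-coding genes between Eno2 and Tpi1 and 18 between Tpi1 and Gapdh on chromosome 4 of the RefSeq annotation. Of these 3 neighbours Tpi1 and Gapdh fell in ASC_HFS and Eno2 was not called.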

How the data were processed

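RNA-seq of 8 libraries, 2 in each of 4 groups (ASC_C, ASC_HFS, AD_C, AD_HFS), was used. Per the labels, the RNA was polyA RNA, yet an rRNA depletion kit is named as well. Per the submitters' processing notes, FastQC, STAR, featureCounts and DESeq2 were used with the builds mRatBN7.2 and rn7; versions and settings are not given in the sources used here. The authors deposited 1 table per cell state, and the deposited values are a signal: 2 raised to the variance-stabilized, size-factor normalized count, as judged from the values. Inverting that transformation returned whole reads for 100% of values (tolerance 1e-06), which gave depths and normalized counts.

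Diet was tested within each table on log2(value + 1) by two-sided limma-trend, with limma 3.58.1 in R 4.3.3. A minimum mean value of 10 removed no gene. There was Benjamini-Hochberg adjustment over all genes and calls at an adjusted p under 0.05. Each gene had 2 residual degrees of freedom, and variances were moderated over the genes. For the interaction, all 8 libraries entered 1 limma-trend model of 4 group means. Alternatives were limma-voom and log2 counts of the recovered reads per 1e6 reads, pseudocounts of 0.5 and 5, a filter at 10 normalized counts, other scalings, a replicate block and leaving out each library. Isozyme ratios were added after seeing the data. Libraries of 1 group differed by 6.81 to 297 chi-square per degree of freedom, so none was a copy of another. This measure cannot tell whether they came from separate animals, cultures or RNA samples. Of the scripts, only the limma-trend fit within a table and the inversion of the deposited scale were tested on simulated data.

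The members and the lists of other pathway genes and markers were chosen with earlier results of these data known. All members are accounted for, and those called in either table or with the largest absolute difference of their step have values per library. Of the other pathway genes, those called are named, at most 10 per table by smallest p, with the remaining called genes and Hif1a added after their values were seen. Symbols are those of the tables, and promoters are from RefSeq (GRCr8). No locations in the authors' builds are given.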

Additional observations from a re-analysis of the deposited data

Results flagged for a closer look

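For 11 of the 31 genes the test of the difference itself, AD minus ASC in 1 limma-trend fit of the 8 libraries, passed an adjusted p of 0.05, and values are on the log2(deposited value + 1) scale. In upper glycolysis the AD diet difference exceeded the ASC difference by 1.90 ± 0.37 for Gpi, 1.57 ± 0.33 for Pfkl, 1.28 ± 0.32 for Aldoc and 2.63 ± 0.47 for Tpi1. In lower glycolysis it exceeded it by 1.39 ± 0.40 for Gapdh, 2.27 ± 0.45 for Pgk1, 1.32 ± 0.31 for Pgam1, 1.53 ± 0.40 for Eno1 and 1.86 ± 0.45 for Pkm. For the lactate exporter Slc16a3 the difference was 2.47 ± 0.41. For the glucose transporter Slc2a3 it was -1.98 ± 0.31, with the HFS libraries above the control libraries in ASC and below them in AD. Gapdh was the gene nearest the threshold (adjusted p = 0.0489, limma-trend).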

How the results depend on the processing

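Every member kept its direction in ASC under each alternative that used all 4 libraries. The filters, the replicate block and the fit of all 8 libraries could not change a direction, since they use the same group means. The pseudocounts hardly could, as the lowest deposited value in ASC was 34.7. Quantile normalization left 1 member called higher in ASC, losing Hk2 and Slc16a1, and 12 lower, losing Pfkm. In AD, where limma-trend called 238 genes higher and 6 lower, the counts higher and lower were 92 and 3 with upper quartile scaling, 106 and 2 on log2 read counts scaled to library size, 147 and 3 with limma-voom, and 403 and 20 with all 8 libraries in 1 fit. The single AD member called lower, Slc2a3, became 0 in these 4 and with quantile normalization, with adjusted p from 0.0554 to 0.0707. Quantile normalization also turned the AD differences of Pfkm and Pfkfb4, both uncalled, to -0.0010 and -0.0011. Whether equal replicate numbers pair libraries of the 2 diets is not stated in the labels. Over genes, the correlation of replicate 1 minus replicate 2 between C and HFS was -0.12 in ASC and 0.0014 in AD. With the replicate block, AD had 599 genes higher and 62 lower, the interaction lost Gapdh and Pgam1 and kept 8 higher and 1 lower, and ASC kept its 16 calls and gained Pfkfb3.

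Leaving out each library in turn left limma-trend 0 higher and 0 lower in ASC, for all genes (1345 and 1386 with all libraries) and for members; with limma-voom all genes ranged from 806 to 1655 higher and from 280 to 1988 lower, and members from 1 to 4 higher and 9 to 13 lower. In AD all genes ranged from 0 to 5018 higher and 0 to 4812 lower, and members from 0 to 13 higher and 0 to 15 lower; the high counts came without an AD_C library. The interaction ranged from 268 to 1451 genes higher and 157 to 1000 lower, and from 2 to 11 members higher and 1 to 3 lower. Uncalled differences changed sign when a library was left out. In AD their ranges were -0.0568 to 0.49 for Dlat, -0.30 to 0.17 for Hk1, -0.44 to 0.0418 for Hk2, -0.31 to 0.68 for Ldhb, -0.0212 to 0.16 for Pdha1, -0.11 to 0.51 for Pdhb, -0.54 to 0.44 for Pfkfb3, -0.0715 to 0.11 for Pfkm, -0.40 to 0.0022 for Pgk1, -0.0868 to 0.26 for Rpia, -0.18 to 0.68 for Slc16a1, -0.23 to 0.96 for Tkt and -0.16 to 0.0209 for Tpi1. In ASC they were -0.25 to 0.56 for Pdhb, -0.21 to 0.15 for Rpia, -0.80 to 0.42 for Taldo1 and -0.53 to 0.0712 for Tkt. With limma-trend, both ends of each AD range were the differences from 1 AD_C library alone, such as 0.96 and -0.23 for Tkt. What set the AD_C libraries apart was not tested, nor was the cause of the sign changes in ASC. Each fit had fewer samples, and a lone library was assumed to vary like the other group, which bears on calls and not on signs. Depth limits ASC_HFS replicate 2 most, where the lowest member count was 5 reads, for Aldoc.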
